A study of Homo sapiens with 18 samples.

Results

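Mitochondrial ribosomal protein genes are the nuclear genes that encode the proteins of the ribosome inside mitochondria. Members were taken by name, as every gene of the deposited table called MRPL or MRPS with a number and at most one letter A to C, together with DAP3 and PTCD3, which are proteins of the same ribosome under other names. The rule found 80 of 58870 genes, 51 of the large subunit, 28 of the small subunit and MRPS36, for which no subunit was set. All 80 passed the filter on low counts that left 17743 genes for testing. They were followed in HEK293T cells, a line derived from human embryonic kidney, in 18 libraries of polyadenylated RNA. Each cell culture carried one of 3 base editors with either an NRF1 guide or a control guide, with 3 libraries for each of the 6 groups. The editors were SaABE (ABE8e fused to the nickase nSaCas9, an adenine editor), SpABE (ABE8e fused to nSpCas9) and SpCBE (evoCDA1 fused to nSpCas9, a cytosine editor). The NRF1 guide was directed at the splice sites of NRF1 exon-7, and the control guide at an intergenic site. The study used 3 constructs of each kind, so the sequence and exact site of a guide may differ between editors. Editor and guide came from one plasmid transfected into 750000 cells, all groups received puromycin for 48 hours, and RNA was taken at 72 hours. The cells are a transfected pool, so edited and unedited cells were measured together. In such bulk samples, fewer cells with a transcript and less transcript per cell cannot be told apart.

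The mitochondrial ribosome translates the few proteins that the mitochondrial genome encodes, all of them parts of the respiratory chain and ATP synthase. It pairs RNA made in the mitochondrion with proteins that are encoded in the nucleus, made in the cytosol and imported, so its assembly draws on both genomes. Some of these proteins have counterparts in bacterial ribosomes and others are found only in mitochondrial ribosomes. NRF1, the factor whose exon-7 was targeted, is known as a transcription factor that binds GC-rich elements in promoters of many nuclear genes for mitochondrial functions. The comparison of the guides therefore addresses how transcripts of this one complex stand when NRF1 exon-7 is targeted.

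The promoter stretches below belong to members that the results turn on, and show where letters of the NRF1 element lie in those that fell and in a member that rose, and where letters of an ETS-type element lie in the pair with the largest rises. Sequences are from RefSeq (GRCh38.p14), and 71 of the 80 members had an entry there. Capitals mark TGCGCA (which reads the same on both strands) or the longer NRF1 element (GCGCA, any base, then GCGC) on either strand. The longer element can overlap TGCGCA but does not contain it. In MRPL54 and MRPL43 capitals mark CCGGAAG on either strand. Each run is read 5′ to 3′ on the gene's own strand and ends before the RefSeq start of the gene. A run has 60 bases, or 30 where the longer one would overlap an exon annotated in GENCODE 44, and the short runs of MRPS35, MRPL14 and MRPL43 still overlap one.
MRPL17: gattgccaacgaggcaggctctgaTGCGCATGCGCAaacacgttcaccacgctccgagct
MRPS35: ctcggctctgagTGCGCAgaccaacgtgtt
MRPS6: tggcgcggcgtcTGCGCAgctgccagcgcc
MRPS18B: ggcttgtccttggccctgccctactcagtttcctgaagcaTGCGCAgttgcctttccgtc
MRPL22: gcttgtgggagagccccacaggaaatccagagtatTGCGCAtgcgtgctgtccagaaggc
MRPL32: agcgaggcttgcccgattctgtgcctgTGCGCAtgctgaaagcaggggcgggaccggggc
MRPL14: tgggcctggcGCGCAGGCGCtaggaagagg
MRPL36: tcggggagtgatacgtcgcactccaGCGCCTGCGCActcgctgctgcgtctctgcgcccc
MRPL54: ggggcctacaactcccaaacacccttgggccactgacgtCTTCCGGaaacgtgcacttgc
MRPL43: gtcgtcccggaaCCGGAAGcctcgaggttt

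These runs lie at chr11:6683387-6683446 (minus strand) for MRPL17, chr12:27710699-27710728 (plus) for MRPS35, chr21:34073518-34073547 (plus) for MRPS6, chr6:30617780-30617839 (plus) for MRPS18B and chr5:154941013-154941072 (plus) for MRPL22. The others are at chr7:42932309-42932368 (plus) for MRPL32, chr6:44127412-44127441 (minus) for MRPL14, chr5:1799913-1799972 (minus) for MRPL36, chr19:3762622-3762681 (plus) for MRPL54 and chr10:100987498-100987527 (minus) for MRPL43.

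Depth was similar across the libraries, with total counts between 28101094 and 40687447. Levels are given as CPM, counts relative to the TMM-scaled size of each library, and depend on transcript length, so they are compared between libraries and not between genes unless divided by length. NRF1 itself was at 35.7 to 43.8 CPM (median 39.5) in the 9 NRF1-guide libraries and at 24.4 to 33.1 CPM (median 28.5) in the 9 intergenic-guide libraries, a log2 fold change of 0.49 ± 0.04 (SE, edgeR adjusted p = 3.61e-09). A count over the whole gene does not show whether exon-7 was skipped. All 4 markers expected in HEK293T cells were at 1 CPM or more. Of 12 markers of blood, fibroblasts and liver, most were below 1 CPM, PTPRC, CD3E and HBB near 0, and COL1A1 and CD14 were among those above it. The summed level of the 12 was 18.4 to 24.6 CPM with the NRF1 guide and 21.9 to 26.7 CPM with the intergenic guide, and its part in the results was not tested.

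With the NRF1 guide, most mitochondrial ribosomal protein transcripts that changed were slightly higher, and a small set was lower. Over all 3 editors, with the editor as an additive term, 37 of 80 members rose and 9 fell at an adjusted p under 0.05 (edgeR quasi-likelihood test, Benjamini-Hochberg over all tested genes), which is 46.2% and 11.2% of the members. Among all tested genes 20.6% rose and 18.8% fell. The median log2 fold change was 0.061 over the members and 0.013 over all tested genes. The changes were small. MRPL54, of the large subunit, was the only member to pass the study's own limits, an adjusted p below 0.05 with a log2 fold change beyond 0.5 in either direction, which 5.50% of all tested genes passed. The other 36 risers had log2 fold changes between 0.06 (MRPS27) and 0.30 (MRPL43), with standard errors over the 80 members from 0.016 to 0.077. Without the editor term, 17 members rose and 7 fell. Among all 17743 tested genes, 1416 rose and 2035 fell in that fit.

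**Figure D1:**
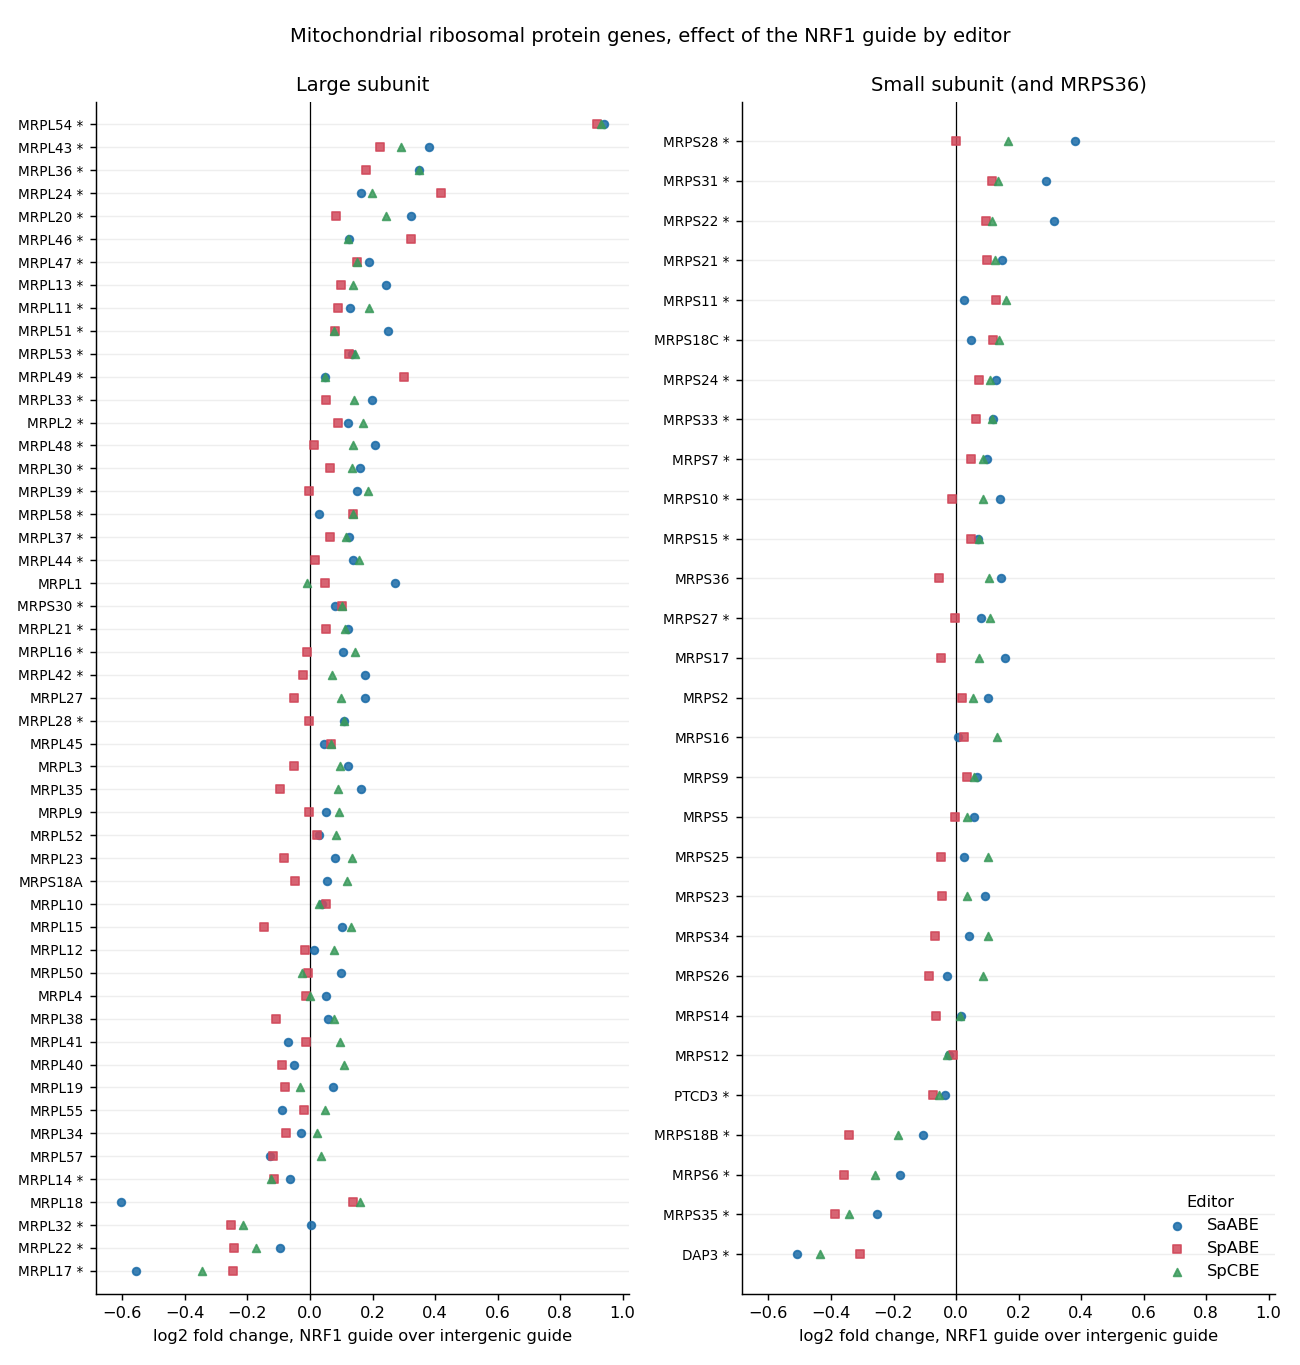
Each row is one member, the x axis gives the log2 fold change of the NRF1 guide over the intergenic guide for each editor (3 libraries of each guide), members are ordered by the change over all 3 editors, and an asterisk marks an adjusted p under 0.05 over all 3 editors. MRPL54 stands at 0.94, 0.92 and 0.93 in SaABE, SpABE and SpCBE, while MRPL18 lies at -0.61 in SaABE and at 0.14 and 0.16 in SpABE and SpCBE.

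MRPL54, a protein found only in mitochondrial ribosomes, showed the largest rise. It was at 47.4, 49.9 and 50.4 CPM with the NRF1 guide and at 24.9, 25.2 and 26.8 CPM with the intergenic guide in SaABE. In SpABE it was at 46.1, 46.9 and 47.3 CPM with the NRF1 guide and at 23.6, 24.3 and 26.3 CPM with the intergenic guide. In SpCBE it was at 48.0, 44.7 and 48.1 CPM with the NRF1 guide and at 23.7, 25.4 and 24.7 CPM with the intergenic guide. Every NRF1-guide library was thus above every intergenic-guide library, whatever the editor. The log2 fold change was 0.93 ± 0.03 (SE, edgeR adjusted p = 9.82e-19), and the largest difference of its effect between editors was 0.02 ± 0.065 on the log2 scale (SaABE minus SpABE, adjusted p = 0.87).

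**Figure D2:**
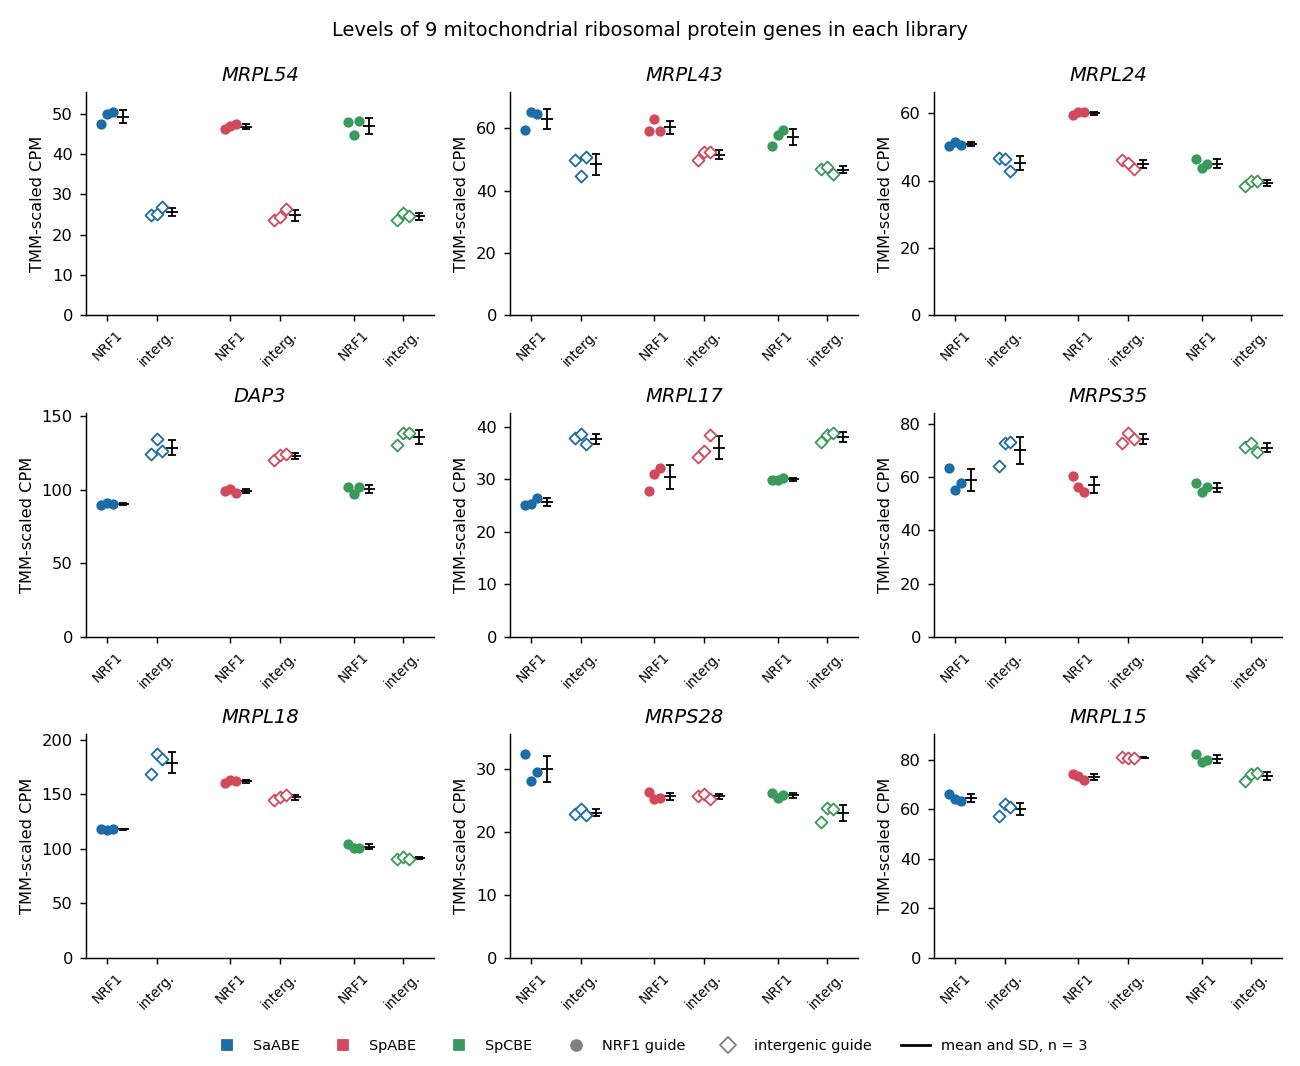
Levels of 9 members per library (TMM-scaled CPM on the y axis, which starts at 0), by editor, with the NRF1 guide (filled circles) left of the intergenic guide (open diamonds) and the mean and SD of 3 libraries beside each group. In MRPL54 all NRF1-guide libraries are at or above 44.7 CPM and all intergenic-guide libraries at or below 26.8 CPM, and in DAP3 the order is the opposite, with 102 CPM or less against 120 CPM or more.

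The next largest rises were in the large subunit. MRPL43, another protein with no bacterial counterpart, was at 59.4, 65.2 and 64.7 CPM with the NRF1 guide and at 49.9, 44.6 and 50.8 CPM with the intergenic guide in SaABE. Its means were 60.3 ± 2.19 and 51.5 ± 1.44 CPM in SpABE, and 57.1 ± 2.56 and 46.7 ± 1.12 CPM in SpCBE (NRF1 guide and intergenic guide, SD, n = 3 each), and its log2 fold change over all editors was 0.30 ± 0.03 (SE, edgeR adjusted p = 3.05e-08). As in MRPL54, its 9 NRF1-guide libraries all stood above its 9 intergenic-guide libraries. The same held for MRPL36, the counterpart of bacterial L36, with means of 35.6 ± 1.54 and 27.9 ± 0.173 CPM in SaABE, 33.3 ± 1.51 and 29.4 ± 0.895 CPM in SpABE, and 33.9 ± 0.373 and 26.6 ± 0.203 CPM in SpCBE (log2 fold change 0.29 ± 0.03, edgeR adjusted p = 2.39e-08). MRPL37, the member with the highest level per kilobase, was the fourth such member, although its log2 fold change was only 0.10 ± 0.02 (edgeR adjusted p = 2.13e-05). It was between 316 and 328 CPM with the NRF1 guide and between 290 and 315 CPM with the intergenic guide. Among all tested genes, 1.44% stood wholly higher in this way.

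The remaining members among the 8 largest rises were MRPL24 at 0.26, MRPL20 at 0.22, MRPL46 at 0.19, MRPS28 at 0.18 and MRPS31 at 0.18 on the log2 scale over all editors (SE 0.03 to 0.04, edgeR adjusted p from 4.89e-07 to 0.00203). MRPL24 is a protein near the exit of the peptide tunnel, and MRPL20 a core protein with a bacterial counterpart. MRPL46 lies in the central protuberance, the part of the large subunit that faces the small one. MRPS28 and MRPS31 were the largest rises of the small subunit. Not all of these rises passed in each editor alone. MRPL20 did not pass in SpABE (0.08, edgeR adjusted p = 0.128). MRPS31 passed in SaABE (0.29, edgeR adjusted p = 0.000199) but not in SpABE or SpCBE (0.12 and 0.13, adjusted p = 0.0844 and 0.0625). Compared within each editor, 16 members had all 3 NRF1-guide libraries above all 3 intergenic-guide libraries in every editor, as 6.24% of tested genes did. These were MRPL11, MRPL13, MRPL21, MRPL24, MRPL30, MRPL36, MRPL37, MRPL43, MRPL46, MRPL47, MRPL51, MRPL54, MRPS15, MRPS21, MRPS22 and MRPS30. At an adjusted p under 0.05 in each editor on its own, 10 members rose in all 3, against 3.93% of tested genes. MRPL37, one of the 10, was at an adjusted p of 0.0431 in SpABE (edgeR), and at 0.0984 with the replicate number as a block. That rise was also lost without any 1 of SpABE NRF1 replicate 1 or 2, SpABE intergenic replicate 1 or 2, or SaABE intergenic replicate 3. The rise of MRPL46 was lost in SaABE without SaABE NRF1 replicate 2 or SaABE intergenic replicate 3, and in SpCBE without SpCBE NRF1 replicate 1 or SpCBE intergenic replicate 3.

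The 9 members that fell were DAP3, MRPL17, MRPS35, MRPS6, MRPS18B, MRPL22, MRPL32, MRPL14 and PTCD3. DAP3, a GTP-binding protein of the small subunit, fell most. It was at 89.8, 90.8 and 90.1 CPM with the NRF1 guide and at 125, 134 and 127 CPM with the intergenic guide in SaABE. In SpABE it was at 99.4, 101 and 98.0 CPM with the NRF1 guide and at 120, 124 and 124 CPM with the intergenic guide, and in SpCBE at 102, 97.0 and 102 CPM with the NRF1 guide and at 131, 139 and 138 CPM with the intergenic guide. The 2 sets of 9 libraries did not overlap. The log2 fold change was -0.42 ± 0.03 (SE, edgeR adjusted p = 3.16e-12), and in SaABE alone it was -0.51 ± 0.03 (edgeR adjusted p = 8.2e-12), just past the limit of 0.5. Without SaABE intergenic replicate 2 it was inside that limit, at -0.48.

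MRPL17, a large subunit protein with a bacterial counterpart, was at 25.1, 25.2 and 26.5 CPM with the NRF1 guide and at 37.8, 38.7 and 36.7 CPM with the intergenic guide in SaABE. Its means in SpABE were 30.4 ± 2.28 and 36.03 ± 2.17 CPM and in SpCBE 29.96 ± 0.285 and 38.1 ± 0.933 CPM (NRF1 guide and intergenic guide, SD, n = 3 each). It fell by 0.38 on the log2 scale over all editors (edgeR adjusted p = 3.59e-08) and by 0.56 in SaABE. MRPS35, a small subunit protein without a bacterial counterpart, had 63.7, 55.4 and 57.9 CPM with the NRF1 guide and 64.4, 73.1 and 73.2 CPM with the intergenic guide in SaABE, with a log2 fold change over all editors of -0.33 ± 0.03 (edgeR adjusted p = 9.46e-09). One SaABE library of each guide thus came close to the other in MRPS35, but the 9 and 9 libraries still did not overlap, as in MRPL17. DAP3, MRPL17 and MRPS35 were the 3 members that stood wholly lower, against 5.25% of tested genes.

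MRPS6, the counterpart of bacterial S6, fell by 0.27 and MRPS18B by 0.21 on the log2 scale (SE 0.03 each, edgeR adjusted p = 8.78e-08 and 1.61e-06). MRPS6 was at 33.3, 34.3 and 31.3 CPM with the NRF1 guide and at 36.8, 37.6 and 37.6 CPM with the intergenic guide in SaABE, and lower in SpABE and SpCBE with either guide (24.7 to 25.6 against 31.8 to 32.6 CPM, and 23.6 to 25.4 against 28.4 to 30.2 CPM, NRF1 guide before intergenic guide). The guides were apart within each editor, though SaABE libraries of the NRF1 guide overlapped intergenic-guide libraries of the other editors. MRPL22, which lines the peptide tunnel, fell by 0.17 (SE 0.03, edgeR adjusted p = 1.58e-05) and MRPL32 by 0.16 (SE 0.03, edgeR adjusted p = 0.000585). The fall of MRPL32 was seen in SpABE (-0.25, edgeR adjusted p = 2.99e-05) and SpCBE (-0.21, adjusted p = 0.000373). In SaABE MRPL32 did not change (0.003, edgeR adjusted p = 0.973). MRPL14 at -0.10 and PTCD3, a pentatricopeptide-repeat protein of the small subunit, at -0.05 were the smallest falls (edgeR adjusted p = 0.0161 and 0.0356). MRPL14 passed in no editor on its own (adjusted p = 0.42, 0.119 and 0.105 in SaABE, SpABE and SpCBE) and was lost in 3 of 28 alternative settings. PTCD3 had 70.8 to 75.6 CPM with the NRF1 guide and 72.8 to 78.4 CPM with the intergenic guide, overlapping ranges, and no longer passed in 18 of 28 alternative settings. These included the leaving out of SaABE replicate 2 of either guide, SpABE NRF1 replicate 1 or 3, SpABE intergenic replicate 1 or 2, SpCBE NRF1 replicate 1 or 3, or any SpCBE intergenic library. Within every editor 6 members stood wholly lower, DAP3, MRPL17, MRPL22, MRPS18B, MRPS35 and MRPS6, as 8.99% of tested genes did. In each editor on its own, 5 of these 6 fell at an adjusted p under 0.05, MRPL22 missing it in SaABE, against 7.70% of tested genes. The fall of MRPS18B in SaABE was lost in 5 of 25 alternative settings, among them the leaving out of SaABE NRF1 replicate 2 or 3 and of SaABE intergenic replicate 1 or 2.

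The hexamer TGCGCA was in the promoters (250 bases before to 50 after the start) of 6 of the 9 members that fell, 3 of the 33 that rose and had a promoter sequence, and 5 of the 29 that did neither. These shares are 66.7%, 9.09% and 17.2%. The 6 were MRPL17, MRPS35, MRPS6, MRPS18B, MRPL22 and MRPL32, the first 6 of the sequences above, in which its first base lies at -82 and -76, -121, -48, -20, -25 and -40 from the start. MRPL32 has a further copy at -183. Over all 27305 RefSeq promoters 8.42% held it, and among tested genes with a promoter sequence it was in 28.5% of those that fell, 8.78% of those that rose and 9.05% of the rest. The longer element was in 2 of the 9 that fell, MRPL14 and MRPL17, in 3 of 33 that rose, MRPL30, MRPL36 and MRPS33, and in 6.28% of all RefSeq promoters. That is 22.2% of the members that fell and 9.09% of those that rose, beside 30.2% of tested genes that fell and 5.63% of those that rose. MRPL36, among the largest rises, thus carries both. DAP3, which fell most, and PTCD3 hold neither set of letters in this window.

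Letters of other factors were spread differently over the same promoters. CCGGAAG, a core of ETS-type elements, was in 18 of the 33 members that rose, in 11 of 29 that did neither and in none of the 9 that fell, against 10.67% of all RefSeq promoters. Among tested genes it was in 24.3% of those that rose and 12.8% of those that fell. It stands at -21 in MRPL54 and at -18 in MRPL43, the last pair of sequences above. AAGATGGC, a YY1-type element, was in 21 of the 71 member promoters (29.6%) and in 3.03% of all RefSeq promoters, 4 of the 9 members that fell and 11 of the 33 that rose included. Among tested genes it was in 4.28% of those that fell and 6.74% of those that rose. Both strands were searched for each of these elements, the elements were compared with the direction of change after the changes were known, and no test was made.

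Some members were followed whatever their values. MRPL12, a protein of the stalk that recruits translation factors and is also reported to bind the mitochondrial RNA polymerase, was at 119 to 130 CPM with the NRF1 guide and at 112 to 132 CPM with the intergenic guide, and its log2 fold change was 0.02 ± 0.02 (edgeR adjusted p = 0.458). The 3 members related to bacterial S18 went different ways. MRPS18A, which sits in the large subunit, was at 0.04 ± 0.03 (edgeR adjusted p = 0.298), MRPS18B fell by 0.21, and MRPS18C rose by 0.10 ± 0.03 (edgeR adjusted p = 0.00233). MRPS18B was at 65.2, 61.9 and 62.4 CPM with the NRF1 guide and at 69.0, 69.8 and 65.2 CPM with the intergenic guide in SaABE, and at 59.7, 60.9 and 60.2 CPM with the NRF1 guide and at 74.4, 76.7 and 77.8 CPM with the intergenic guide in SpABE. The SpABE guides were far apart in MRPS18B, whereas those of SaABE met at 65.2 CPM. MRPS18C had 29.5 to 30.9 CPM with the NRF1 guide and 28.5 to 30.3 CPM with the intergenic guide in SaABE.

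Per kilobase of the canonical transcript, large subunit levels ran from 6.19 CPM per kb with the NRF1 guide and 5.88 CPM per kb with the intergenic guide in MRPL42 to 217 and 203 CPM per kb in MRPL37. In the small subunit they ran from 10.96 and 11.38 CPM per kb in PTCD3 to 110 and 102 CPM per kb in MRPS24. The canonical transcripts of MRPL42 (15557 bases) and PTCD3 (6681 bases) are far longer than that of MRPL37 (1483 bases), and a shorter transcript in use would raise their values. Exons of another gene on the same strand cover 90.9% of the canonical transcript of MRPS24, so its level and its change are less certain. MRPL42 rose by 0.07 ± 0.02 on the log2 scale and MRPS24 by 0.10 ± 0.03 (edgeR adjusted p = 0.0208 and 0.00346). The rise of MRPL42 no longer passed in 6 of 28 alternative settings, among them the leaving out of SaABE intergenic replicate 3.

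In the large subunit 25 of 51 members rose and 4 fell (49% and 7.84%, median log2 fold change 0.072), and in the small subunit 12 of 28 rose and 5 fell (42.9% and 17.9%, median 0.057). In SpABE alone 14 rose and 5 fell in the large subunit, and 3 rose and 4 fell in the small subunit. Of 47 members with a bacterial counterpart 20 rose and 6 fell (median 0.058), and of 31 found only in mitochondrial ribosomes 17 rose and 3 fell (median 0.073). Of 7 proteins listed for the tunnel exit 4 rose and MRPL22 fell, of 6 listed for the central protuberance 2 rose, and of 3 listed for the stalk 1 rose. These lists may not hold every protein of each region. None of the differences between these lists was tested. The summed level of the large subunit divided by that of the small subunit, all in CPM, was 1.88 to 1.90 with the NRF1 guide and 1.80 to 1.83 with the intergenic guide in SaABE. It was 1.88 to 1.90 against 1.78 to 1.80 in SpABE and 1.90 to 1.91 against 1.80 to 1.81 in SpCBE. This ratio was thus higher with the NRF1 guide in every library of each editor.

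**Figure D3:**
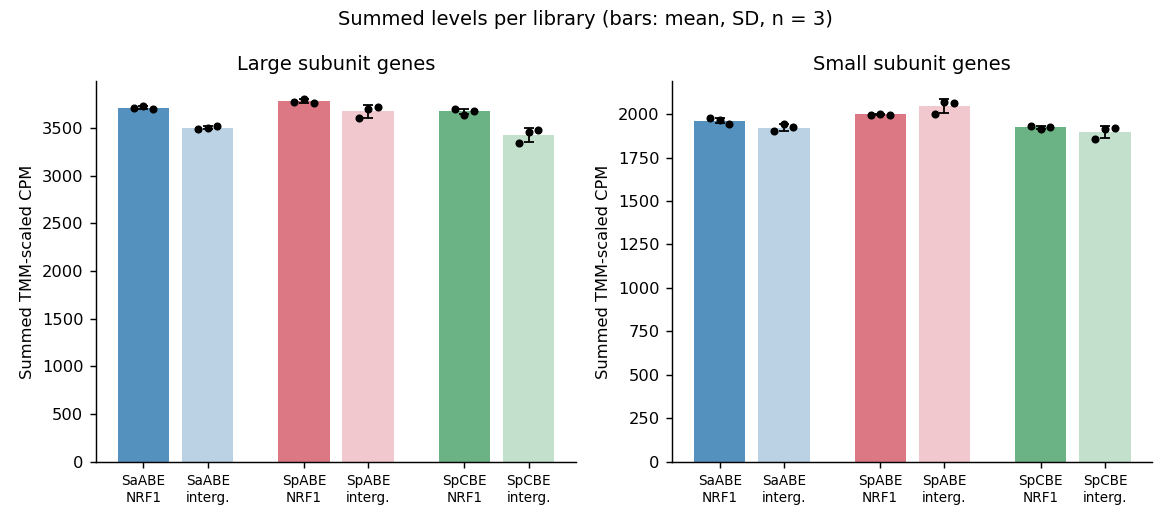
Summed TMM-scaled CPM (y axis, from 0) of the large subunit and small subunit genes in each group, NRF1 guide left of intergenic guide, with bars for the mean, error bars for the SD and points for the 3 libraries. Large subunit sums with the NRF1 guide lie above those with the intergenic guide in each editor, and small subunit means in SpABE run the other way (1998 ± 3.12 against 2045 ± 40.8).

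The shift was not equal in the 3 editors. In SaABE 40 members rose and 6 fell, against 16.9% and 15.5% of tested genes, and in SpCBE 36 rose and 7 fell, against 11% and 12%. In SpABE 17 rose and 9 fell, against 15.4% and 17.3%. Past both limits were MRPL54, MRPL17, DAP3 and MRPL18 in SaABE and MRPL54 alone in SpABE and SpCBE, where 6.05%, 6.41% and 4.45% of tested genes passed. Median log2 fold changes of the members were 0.086 in SaABE, -0.002 in SpABE and 0.099 in SpCBE, beside 0.015, -0.002 and 0.012 for all tested genes. Summed over the 80 members, the level was 5711 ± 30.2 CPM with the NRF1 guide and 5458 ± 30.8 CPM with the intergenic guide in SaABE, 5810 ± 23.1 and 5753 ± 104 CPM in SpABE, and 5631 ± 37.9 and 5355 ± 109 CPM in SpCBE (SD, n = 3 each). The groups did not overlap in SaABE and SpCBE but did in SpABE, where the intergenic-guide libraries ran up to 5824 CPM. With library totals in place of TMM scaling, SpABE had 10 members higher and 17 lower and SaABE 23 higher and 8 lower, so the balance in SpABE turned with the scaling. Without SpCBE intergenic replicate 1, 22 members rose in SpCBE.

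The difference between editors was itself tested. The NRF1-guide effect was more positive in SaABE than in SpABE in 15 members and more negative in 6 (6.37% and 5.33% of tested genes, 11.7% in all), and SpABE was more positive than SpCBE in 3 and more negative in 10 (4.54% and 4.42% of tested genes). SaABE and SpCBE differed in 4 members, 3 of them more positive in SaABE (2.02% and 2.07% of tested genes more positive and more negative, 4.09% in all). With the replicate number as a block, the SpABE and SpCBE effects differed in 8 members instead of 13 (8.96% of tested genes differed without the block). That count was also 6 or 7 without any 1 of SpABE NRF1 replicate 1 or 3, SpABE intergenic replicate 2, SpCBE NRF1 replicate 1 or 2, or SpCBE intergenic replicate 1 or 2. The 4 members that differed between SaABE and SpCBE became 1 or 2 without any 1 of SaABE NRF1 replicate 1 or 3, SaABE intergenic replicate 1 or 3, SpABE NRF1 replicate 1, or any of the 6 SpCBE libraries.

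MRPL18 gave the largest difference. This large subunit protein of the central protuberance is also known to have a cytosolic form that is made under heat stress. It was at 118, 117 and 118 CPM with the NRF1 guide and at 168, 187 and 182 CPM with the intergenic guide in SaABE. In SpABE it was at 161, 163 and 162 CPM with the NRF1 guide and at 145, 148 and 149 CPM with the intergenic guide. In SpCBE it was at 104, 101 and 100 CPM with the NRF1 guide and at 90.9, 92.1 and 90.4 CPM with the intergenic guide. The guides were apart in each editor, but lower with the NRF1 guide in SaABE and higher in both others. The log2 fold changes were -0.61, 0.14 and 0.16 in SaABE, SpABE and SpCBE (SE 0.03 each, edgeR adjusted p = 9.12e-14, 0.000862 and 0.000509). The SaABE effect lay 0.74 below that of SpABE (log2 difference -0.74 ± 0.04, edgeR adjusted p = 4.77e-11) and below that of SpCBE by a like amount (-0.77 ± 0.04, adjusted p = 1.43e-10). Its effect over all editors, -0.10 ± 0.08, did not pass (edgeR adjusted p = 0.314), though it passed with no filter on low counts, and without the SaABE libraries it was 0.15.

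Levels of MRPL18 also differed between the intergenic controls, by 0.28 ± 0.03 between SaABE and SpABE and by 0.97 ± 0.03 between SaABE and SpCBE on the log2 scale (edgeR adjusted p = 6.16e-08 and 1.01e-17). TCP1, a chaperonin subunit gene whose start lies 865 bases from that of MRPL18 on the other strand, was at 1300 ± 46.95 CPM with the NRF1 guide and 1211 ± 45.4 CPM with the intergenic guide in SaABE. It was at 738 ± 19.1 and 818 ± 10.2 CPM in SpABE and at 632 ± 11.97 and 660 ± 8.01 CPM in SpCBE (SD, n = 3 each). TCP1 thus rose in SaABE with the NRF1 guide (log2 fold change 0.10 ± 0.03, edgeR adjusted p = 0.00776), where MRPL18 fell, and both genes were highest in SaABE among the controls.

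Other members differed between editors by less. MRPS28 had 32.3, 28.1 and 29.5 CPM with the NRF1 guide and 22.8, 23.7 and 22.7 CPM with the intergenic guide in SaABE, but 26.3, 25.2 and 25.4 CPM with the NRF1 guide and 25.7, 26.04 and 25.2 CPM with the intergenic guide in SpABE. Its effect was 0.38 ± 0.07 higher in SaABE than in SpABE on the log2 scale (edgeR adjusted p = 0.000888). MRPL15, of the core of the large subunit, rose in SaABE (0.10 ± 0.03) and SpCBE (0.13 ± 0.03) and fell in SpABE (-0.15 ± 0.03, edgeR adjusted p = 0.0263, 0.00392 and 0.000897). Its rise in SaABE no longer passed in 6 of 25 alternative settings, among them the leaving out of SaABE NRF1 replicate 1 and of SaABE intergenic replicate 1. MRPL15 was at 74.1, 73.5 and 71.7 CPM with the NRF1 guide and at 81.2, 80.7 and 80.7 CPM with the intergenic guide in SpABE, so that its SpABE controls were also its highest controls.

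MRPL24, MRPL46 and MRPL49 rose more in SpABE than elsewhere. MRPL24 was at 59.5, 60.3 and 60.2 CPM with the NRF1 guide and at 46.005, 45.2 and 43.5 CPM with the intergenic guide in SpABE, a log2 fold change of 0.42 ± 0.04, against 0.16 in SaABE and 0.20 in SpCBE. MRPL49, a protein found only in mitochondrial ribosomes, was at 143, 143 and 147 CPM with the NRF1 guide and at 116, 114 and 121 CPM with the intergenic guide in SpABE, a log2 fold change of 0.30 ± 0.03, against 0.05 in SaABE and 0.05 in SpCBE. MRPL46 gave 0.32, 0.13 and 0.12 in SpABE, SaABE and SpCBE. For each of the 3 genes the SpABE effect differed from that of SaABE and that of SpCBE (edgeR adjusted p from 0.00136 to 0.0194). The difference of MRPL46 between SaABE and SpABE was lost without SaABE NRF1 replicate 1. MRPS18B fell most in SpABE, at -0.34 against -0.11 in SaABE and -0.19 in SpCBE (edgeR adjusted p = 0.00201 and 0.0363 for the differences). The second of these was 0.0701 with the replicate block and did not pass in 12 of 24 alternative settings, among them the leaving out of any SpABE or SpCBE library other than SpABE intergenic replicate 1 and SpCBE intergenic replicate 3.

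The intergenic controls of the editors also differed in these genes. In SaABE controls 7 members were higher and 38 lower than in SpABE controls (19.3% and 19.1% of tested genes), with a median log2 difference of -0.090. In SpABE controls 42 members were higher and 4 lower than in SpCBE controls (17.7% and 17.8% of tested genes), with a median of 0.108. Between SaABE and SpCBE controls 20 members were higher and 23 lower (20.1% and 20.6% of tested genes), with a median of -0.008. The SpABE controls enter both these comparisons and the SpABE effect, which therefore are not independent. Each editor had its own NRF1-guide plasmid and its own control plasmid. The editor, the sequence and site of its guides, and anything else that set its 6 libraries apart therefore cannot be told apart.

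A divergent neighbour was taken as a gene on the other strand whose start lies within 1000 bases on either side of a member's start. One was found for 33 members, in 32 pairs, as MRPL46 and MRPS11 are neighbours of each other. For MRPS34 and MRPS9 the neighbour starts downstream of the member's start, so these pairs are not strictly divergent. Member and neighbour both passed in the same direction for 9 of the 33, with MRPL46 and MRPS11 each counted. They passed in opposite directions for 3, MRPL30, MRPL32 and MRPS18B. No such share was computed for other genes, and the pairs that follow are only some of the 32. MRPL46 and MRPS11 both rose, by 0.19 ± 0.03 and 0.11 ± 0.02 on the log2 scale (edgeR adjusted p = 1.49e-05 and 0.00155). DAP3 and YY1AP1 fell together, YY1AP1 by 0.23 ± 0.02 (edgeR adjusted p = 5.82e-10), and MRPL14 and TMEM63B did so as well, TMEM63B by 0.31 ± 0.03 (adjusted p = 8.34e-09). MRPL43 rose beside TWNK, the mitochondrial DNA helicase gene 46 bases away, which rose by 0.08 ± 0.02 (adjusted p = 0.00922). MRPL54 rose with no passing change in APBA3 (-0.09 ± 0.05, adjusted p = 0.19), and MRPS18B fell while PPP1R10 rose by 0.08 ± 0.02 (adjusted p = 0.00701). The starts of these neighbours are 317, 102, 46, 990 and 597 bases from those of DAP3, MRPL14, MRPL43, MRPL54 and MRPS18B.

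Of 24 assembly factors of the mitochondrial ribosome 11 rose and 6 fell over all editors (45.8% and 25%, median log2 fold change 0.050), and of 14 translation factors 9 rose and 3 fell (64.3% and 21.4%, median 0.099). Among all tested genes 20.6% rose and 18.8% fell, so the shares that fell are near the background. Among the risers were YBEY, an endonuclease of small subunit assembly, at 0.32 ± 0.04, the release factor gene MTRF1 at 0.21 ± 0.05 and the elongation factor gene GUF1 at 0.19 ± 0.04 (edgeR adjusted p = 2.38e-06, 0.000731 and 0.000613). The 3 genes with the smallest p in each list all fell. RBFA, a maturation factor of the small subunit, was at 7.57 to 9.66 CPM (median 8.44) with the NRF1 guide and at 12.2 to 13.4 CPM (median 13.01) with the intergenic guide, a log2 fold change of -0.60 ± 0.04 (edgeR adjusted p = 1.31e-11). MTG2, a GTPase of large subunit assembly, and MRM1, a methyltransferase of the large ribosomal RNA, fell by 0.25 ± 0.03 and 0.49 ± 0.06 (adjusted p = 3.81e-07 and 6.2e-07). OXA1L, the insertase that receives new proteins from the ribosome at the inner membrane, was at 46.4 to 55.9 CPM (median 48.8) with the NRF1 guide and at 81.3 to 92.6 CPM (median 85.6) with the intergenic guide, a log2 fold change of -0.77 ± 0.03 (adjusted p = 1.83e-15). C12orf65, a factor that rescues stalled mitochondrial ribosomes, and MTFMT, which formylates the initiator tRNA, fell by 0.39 ± 0.03 and 0.46 ± 0.05 (adjusted p = 7.49e-10 and 1.01e-07). For OXA1L, RBFA, MTFMT and, narrowly, MTG2 the 9 libraries of one guide did not overlap the 9 of the other. Those of C12orf65 and MRM1 did. Of all tested genes, 5.25% stood wholly lower in this way.

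**Figure D4:**
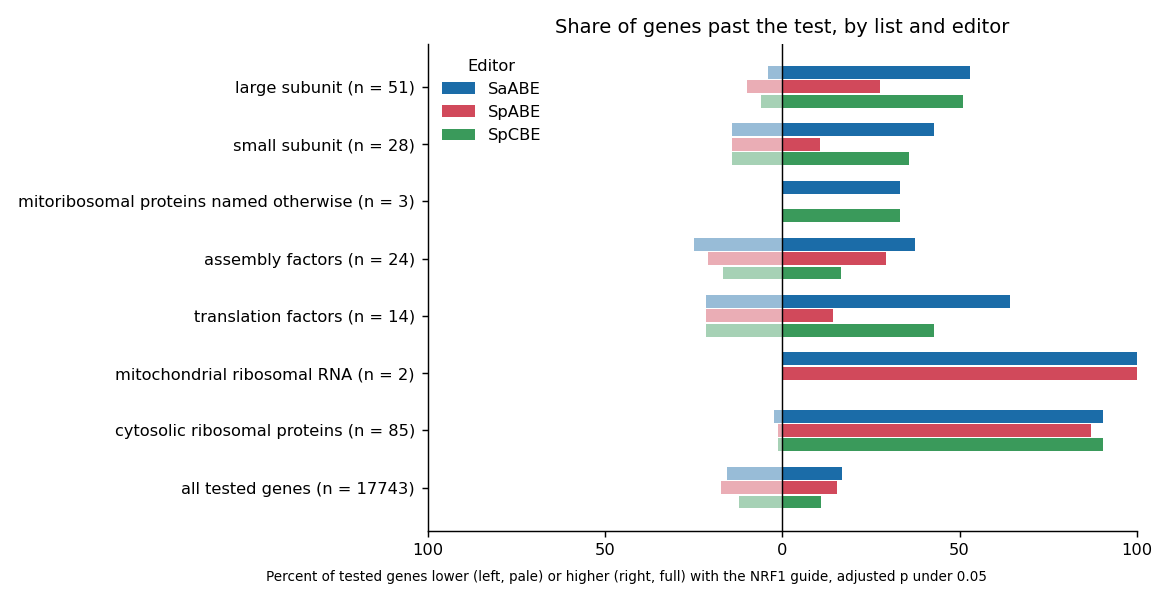
Percent of the tested genes of each list (x axis, from 0 to 100 either way) that were lower (left, pale) or higher (right, full colour) with the NRF1 guide at an adjusted p under 0.05, by editor. Of the cytosolic ribosomal protein genes 74 to 77 of 85 were higher in an editor, and of the mitochondrial members 17 to 40 of 80, a difference that was not tested.

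Of 3 further proteins of the mitochondrial ribosome with other names, CHCHD1 and AURKAIP1 rose by 0.12 ± 0.03 and 0.07 ± 0.03 (edgeR adjusted p = 0.00455 and 0.0294) and GADD45GIP1 was at 0.08 ± 0.03 (adjusted p = 0.0744). The ribosomal RNAs of the mitochondrion, MT-RNR1 and MT-RNR2, rose in SaABE by 0.19 ± 0.03 and 0.21 ± 0.03 and in SpABE by 0.21 ± 0.03 and 0.25 ± 0.03, and stood at -0.03 ± 0.03 and -0.02 ± 0.03 in SpCBE (edgeR adjusted p = 0.624 and 0.679). Their SpCBE effect differed from those of SaABE and SpABE (edgeR adjusted p from 0.00037 to 0.00927). Selection on poly(A) may capture these RNAs in part only. Of the 85 tested genes for proteins of the cytosolic ribosome 79 rose and 1 fell (median log2 fold change 0.173), against 37 and 9 of the 80 mitochondrial members. Their summed level was 92811 ± 1599 CPM with the NRF1 guide and 81455 ± 1107 CPM with the intergenic guide in SaABE, 94532 ± 116 and 84917 ± 1762 CPM in SpABE, and 87077 ± 1842 and 78725 ± 2516 CPM in SpCBE (SD, n = 3 each). Unlike the mitochondrial sum, this sum did not overlap between the guides in SpABE. The difference between the lists was not tested.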

How the data were processed

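Polyadenylated RNA of HEK293T cells was sequenced from a stranded mRNA kit in 18 libraries, 6 groups of 3. The authors trimmed reads with Cutadapt 1.18 and aligned them with STAR 2.7.0f to hg38 and GENCODE 30; which program counted reads, and how it treated strand and multiple matches, is not given in the sources used here. The authors deposited estimated counts per gene, not normalized, and 19.63% of nonzero values were not whole, so they were rounded. Of 36 sample columns, 18 were not used. Exons of another gene cover part of MRPL12, MRPL19, MRPL20, MRPL30, MRPL38, MRPL46, MRPL47, MRPL49, MRPS6, MRPS7, MRPS17, MRPS18C, MRPS24, MRPS25, MRPS28 and MRPS34, whose counts are therefore less certain. The part is 90.9% of the canonical transcript in MRPS24, 83.6% in MRPS18C (opposite strand), 73.1% in MRPL46, 69.5% in MRPL12 and 56.2% in MRPS28.

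Genes were filtered by edgeR's filterByExpr, scaled by TMM and tested with edgeR 4.0.16 (quasi-likelihood, Benjamini-Hochberg) over 17743 genes. The comparison of guides over all editors had the editor as a term; other comparisons came from 6 group means. Nothing in the labels says that replicates came from separate cultures. The p-values thus reflect the spread among these libraries alone, which may be technical. All pairs of replicates differed beyond sampling noise. The labels do not say what a replicate number marks. Same-numbered SpABE libraries had correlations of deviations of 0.17, 0.138 and 0.137 over 8218 genes. Differently numbered SaABE libraries reached 0.395 and 0.366, so values of this size do not establish a pairing. The fits, planned on the assumption of whole counts, were checked on simulated data.

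Members, lists and tests were chosen with earlier results of these data known. Members given with values were those past both limits in any fit, the 8 largest rises and falls, the 6 with the smallest p for a difference between editors, the highest and lowest level per length of each subunit, and DAP3, PTCD3, MRPL12 and MRPS18A to C; other lists gave up to 3 genes by p. YBEY, MTRF1 and GUF1 were named as risers, and TCP1, MRPS11, YY1AP1, TMEM63B, TWNK, APBA3 and PPP1R10 were named as neighbours after their values were seen. Alternatives were other scaling, filters, DESeq2 1.42.0, each library left out, a replicate block, no editor term, 1 editor alone and, chosen after seeing the data, each editor left out. Coordinates and lengths are from GENCODE 44 on hg38. One marker gene is not reported here by name.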

Additional observations from a re-analysis of the deposited data

Results flagged for a closer look

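By a test of the difference (edgeR, adjusted p under 0.05), the NRF1-guide effect differed between editors in 12 of 26 members given with values. Some of the 26 were chosen for a small p in this test, which can raise that share. Over all 80 members, 27 differed in any comparison of editors. Among all tested genes, 11.7% differed between SaABE and SpABE, 4.09% between SaABE and SpCBE and 8.96% between SpABE and SpCBE. Each of these shares is for its own comparison alone, whereas the counts of 12 and 27 pool all comparisons. The share of tested genes that differed in any comparison was not computed, so these counts have no matching background. All differences here are on the log2 scale.

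In SaABE minus SpABE, MRPL18 stood at -0.74, MRPL17 at -0.31, MRPL24 and MRPL49 at -0.25, DAP3 at -0.20 and MRPL46 at -0.20. In the other direction MRPS28 stood at 0.38, MRPL32 at 0.25, MRPL15 at 0.25, MRPL20 at 0.24, MRPS18B at 0.23 and MRPL42 at 0.20. In SaABE minus SpCBE, MRPL18 stood at -0.77 and MRPL32 at 0.22, the second of which was lost in 14 of 24 alternative settings. In SpABE minus SpCBE, MRPL49 stood at 0.25, MRPL24 at 0.22, MRPL46 at 0.20, MRPL15 at -0.28 and MRPS18B at -0.16. MRPL18 was the member with the largest difference in both comparisons that include SaABE.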

How the results depend on the processing

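MRPL54 passed both limits under all alternatives tried, with log2 fold changes between 0.90 and 0.95, and was the only member called over all 3 editors in each of them. Over 26 members given with values and 28 alternatives, 694 outcomes kept direction and side of the threshold, 31 lost the threshold, 2 gained it and 1 reversed, MRPL18 at 0.15 without the SaABE libraries. Causes were not tested. Counts of risers over all editors were 17 without the editor term, and 33, 47 and 28 when SaABE, SpABE or SpCBE was left out (an alternative chosen after seeing the data). Tested genes that rose in these fits numbered 1416 of 17743, 3010 of 17529, 3048 of 17305 and 3032 of 17334, in the same order. With library totals alone, 23 members rose in SaABE, 10 rose and 17 fell in SpABE, and 2 differed between SaABE and SpCBE. From the 6 libraries of the editor alone, 22 rose in SaABE, and with no filter on low counts 11 rose in SpABE.

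Leaving out each library in turn gave 35 to 42 risers and 8 to 9 fallers over all editors and 1 to 1 called. For SaABE, SpABE and SpCBE in turn, risers numbered 31 to 39, 12 to 18 and 22 to 39, and fallers 5 to 6, 8 to 13 and 7 to 7. Members that differed numbered 15 to 25 between SaABE and SpABE, 1 to 5 between SaABE and SpCBE, and 6 to 15 between SpABE and SpCBE.

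Same-numbered libraries had correlations of -0.41, -0.374 and -0.0312 in SaABE and of 0.0321, 0.042 and 0.115 in SpCBE. No pairing by replicate number was established in any editor. With the replicate block, 34 members rose and 8 fell over all editors. By editor, SaABE had 35 and 6, SpABE 14 and 9, SpCBE 29 and 7, while 17, 3 and 8 differed between editors. MRPL15 in SaABE then had an adjusted p of 0.0637, and besides MRPL37 and MRPS18B no other call of a member given with values in 1 editor or between editors changed. Depth limited none of the 80 members to low counts, and the small changes rest on 3 libraries a group.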
